A study of Mus musculus with 111 samples.

Results

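The genes described here encode the nuclear subunits of the oxidative phosphorylation system in mouse embryos at the 2-cell stage. They were chosen by symbol from the authors' gene names with 1 pattern for the Nduf, Sdh, Uqcr, Cyc1, Cycs, Cox and Atp5 families, which found 87 of 36134 gene identifiers. By complex these were 37 members of complex I, 4 of complex II, 11 of complex III, 1 for cytochrome c, 16 of complex IV and 18 of complex V, the ATP synthase. The pattern also took the pseudogenes Cox6c2, Uqcrh-ps1 and Uqcrh-ps2 and a second identifier that overlaps Atp5o, and it left out Cox4i1, whose symbol ends in another form. Ndufa4 was kept with complex I as its symbol says, although its product is now placed with complex IV.

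RNA with poly(A) tails was sequenced from 56 control and 55 knockdown embryos of strain B6129F1, each a library of its own, in 3 experiments on Nr5a2, an orphan nuclear receptor. In every embryo the oocyte had received 2 siRNAs, each at 20 µM, at the germinal vesicle stage, directed against Nr5a2 or used as a control. Marker RNA at 150 ng per µl was injected with them, H2B-EGFP in control and H2B-rsEGFP in knockdown oocytes, so the arms differed in the marker too. Both arms then spent 5 hours in medium that blocks maturation and 12 hours in maturation medium, before in vitro fertilization and KSOM culture. The control arm had 24, 7 and 25 embryos in experiments 1, 2 and 3, and the knockdown arm 16, 16 and 23. Nothing in the labels says which embryos shared a mother or a fertilization, so the spread that p-values rest on is that between embryos, which may share parents. Each library is a whole embryo, so a lower level in 1 blastomere and in both cannot be told apart.

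Oxidative phosphorylation is carried out in the inner mitochondrial membrane. Complexes I and II take electrons from NADH and succinate, complex III passes them to cytochrome c, complex IV hands them to oxygen, and complex V uses the resulting proton gradient to make ATP. Most subunits are encoded in the nucleus and a few in mitochondrial DNA, and mouse eggs and cleavage-stage embryos rely on mitochondria that were made during oocyte growth. Some complex IV subunits and subunit c of complex V come from alternative genes, and a part of the complex IV genes is named for its known expression in testis or in muscle.

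Summed over genes, the libraries held between 1.96 and 21.2 M estimated counts (median 4.75 M), and the group medians lay between 3.66 M in knockdown embryos of experiment 2 and 5.37 M in control embryos of experiment 3. Levels are given as counts per M (CPM) after scaling for library composition. Nr5a2, the targeted gene, had a median of 103 CPM in control embryos (32 to 234) and 47.2 CPM in knockdown embryos (13.1 to 119). It fell by 1.17 on the log2 scale (SE 0.12), with an adjusted p of 3.7e-12 in edgeR, and the arms overlapped. There were 3 libraries that stood apart, embryos 5, 8 and 15 of the experiment 3 knockdown group: over all tested genes their log2 CPM correlated with the median of their own group at 0.71 to 0.78, against 0.82 or more for the other libraries. Of the 78 members that passed the filter on low counts, 27 had their highest embryo by this CPM among these 3 libraries and 14 had their lowest. Oocyte markers were present in every embryo. They summed to between 2211 and 6364 CPM in control and between 1823 and 15636 CPM in knockdown embryos, with 0 of 11 called. The 2-cell markers summed to between 511 and 8510 CPM in control and between 234 and 7893 CPM in knockdown embryos. Of the 18 tested 0 were called. The comparison of the arms called 1.1% of all tested genes, so counts of 0 in lists this short do not show that the arms were alike. Granulosa and cumulus markers summed to between 15.2 and 271 CPM, mostly from Amhr2, while Fshr was at 0 in 105 embryos. Of these 12 markers 3 passed the filter. The 9 sperm markers summed to between 74.8 and 570 CPM. Among them 1 passed the filter, Odf2, and Tnp2 was at 0 in 107 embryos.

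The promoters of 4 genes are printed because the results on these genes turn on them or because they carry the motifs searched for. They are the 250 bases before the RefSeq start of Cox6b1, the only member called in the knockdown comparison, Cox6b2, its far more abundant testis-named alternative, Sdha, with 3 NRF1 matches, as many as any member, and Atp5g3, the member with the lowest fold change. All lie on the minus strand of GRCm38.p6 and are written 5′ to 3′ in the direction of the gene, ending at the base before the start. Capitals mark matches to the NRF1, ETS, YY1 and NR5A2 letters given after the runs, while matches to the other 3 motifs searched are left in lower case.
Cox6b1 chr7:30626115-30626364: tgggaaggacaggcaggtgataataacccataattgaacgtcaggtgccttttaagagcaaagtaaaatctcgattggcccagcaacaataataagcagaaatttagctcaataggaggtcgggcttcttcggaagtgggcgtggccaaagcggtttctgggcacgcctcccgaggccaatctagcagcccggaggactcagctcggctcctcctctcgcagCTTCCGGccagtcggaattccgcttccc
Cox6b2 chr7:4753095-4753344: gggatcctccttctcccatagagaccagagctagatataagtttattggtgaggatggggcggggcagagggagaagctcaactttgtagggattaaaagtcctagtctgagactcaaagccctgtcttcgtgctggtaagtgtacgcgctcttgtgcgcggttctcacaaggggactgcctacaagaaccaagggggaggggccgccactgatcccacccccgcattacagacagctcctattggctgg
Sdha chr13:74350241-74350490: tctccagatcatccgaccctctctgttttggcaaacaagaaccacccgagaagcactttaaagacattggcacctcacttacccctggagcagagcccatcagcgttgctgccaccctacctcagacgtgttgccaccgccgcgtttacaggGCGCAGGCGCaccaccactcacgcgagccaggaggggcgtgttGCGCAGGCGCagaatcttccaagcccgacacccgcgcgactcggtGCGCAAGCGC
Atp5g3 chr2:73911327-73911576: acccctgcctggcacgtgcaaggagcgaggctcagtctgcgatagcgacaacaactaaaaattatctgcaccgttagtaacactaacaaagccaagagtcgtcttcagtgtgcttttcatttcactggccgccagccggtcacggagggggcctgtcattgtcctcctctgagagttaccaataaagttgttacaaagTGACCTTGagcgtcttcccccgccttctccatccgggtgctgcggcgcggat

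In these runs the capitals mark an ETS-type match in Cox6b1 that starts 28 bases before the RefSeq start. Cox6b1 in GENCODE M21, at the coordinates given below, starts further upstream, so this ETS-type match lies inside that gene model. In Sdha 3 NRF1-type matches start 98, 55 and 10 bases before its RefSeq start, and in Atp5g3 an NR5A2-type match starts 52 bases before its own. Cox6b2 held no match to the NRF1, ETS, YY1 or NR5A2 letters. RefSeq gave 74 promoter windows (250 bases before to 50 after the start) for 69 of the 87 members. The NRF1 letters (GCGCA, any base, GCGC), for a factor known to drive genes of respiration, stood on either strand in 18 of the 74 windows (24.3%), against 9.56% of the 12742 windows of tested genes and 4.6% of all 32851 windows. The ETS letters CCGGAAG, bound by factors such as GABP, stood in 17 windows (23.0%), against 16.6% and 8.86%. For the YY1 letters AANATGGC the count was also 17 (23.0%), against 8.30% and 6.05%. The SP letters GGGCGG went the other way against tested genes, with 39.2% of member windows, 59.1% of windows of tested genes and 35.7% of all windows. For CCAAT the shares were 43.2%, 38.8% and 37.4%, and for TATAAA 12.2%, 7.75% and 13.6%. NRF1 or ETS letters stood in 41.9% of the member windows and 24.2% of the windows of tested genes, and 4 member windows held both. The first match lay before the start in 14 of the 18 windows with NRF1 letters, 13 of the 17 with ETS letters and 7 of the 17 with YY1 letters. The letters CAAGGNCA, of the kind that NR5A2 binds, stood in 8 windows (10.8%) of 7 members, against 5.07% of windows of tested genes and 6.71% of all windows. These 7 were Atp5c1, Atp5g3, Atp5l, Ndufa10, Ndufs3, Ndufs5 and Sdhd. Of them 4 had a positive and 3 a negative fold change in the knockdown comparison, and 0 were called, against 1.1% of all tested genes. Fold changes of tested members were positive for 12 and negative for 4 with NRF1 letters, positive for 14 and negative for 3 with ETS letters, and positive for 8 and negative for 9 with YY1 letters. Over all 78 tested members the fold change was positive for 59 (75.6%), and a link between letters and fold change was not tested. A match is a run of letters in a window and no measure of binding.

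Transcripts of most members were detected in every embryo. Levels sum all annotated transcripts of a gene, and the most abundant of these was protein coding in 72 of the 78 tested members. The filter passed 78 members, 48 of which had at least 10 counts in every embryo, and 69 of the 87 members were detected in every embryo. Members outside the filter were Ndufb4, Cox7a1, Cox7b2, Cox8b, Cox8c, the 3 pseudogenes and the second Atp5o identifier. Together the members took 3653 ± 612 CPM in control embryos (SD, n = 56), with a range of 2049 to 5217. Per transcript length, in transcripts per M (TPM) averaged over all embryos, complex IV members were the highest with a median of 207, followed by complex V at 75.7 and complex III at 73.4. Complex I members had a median of 32.3 TPM, Cycs 27.7 and complex II members 14.6. The genes of 1 complex were far from equal in RNA. In complex I the range was 122-fold, from Ndufa8, an accessory subunit, at 4.08 TPM to Ndufa4 at 497. The upper end rests on Ndufa4, whose product is now placed with complex IV, and no range without it is given here. Complex IV spanned 149-fold, from the muscle isoform Cox6a2 at 5.68 TPM to Cox8a at 845, the highest of all members. The 4 genes of complex II were the most even, from the membrane anchor Sdhd at 8.98 TPM to the flavoprotein Sdha at 40.5, a range of 4.51-fold. In complex III the core protein Uqcrc1 was lowest at 20.7 TPM and the small subunit Uqcr10 highest at 190. In complex V the catalytic beta subunit Atp5b had 583 TPM, close to the subunit c gene Atp5g1, and the alternative subunit c gene Atp5g2 had 5.96.

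**Figure D1:**
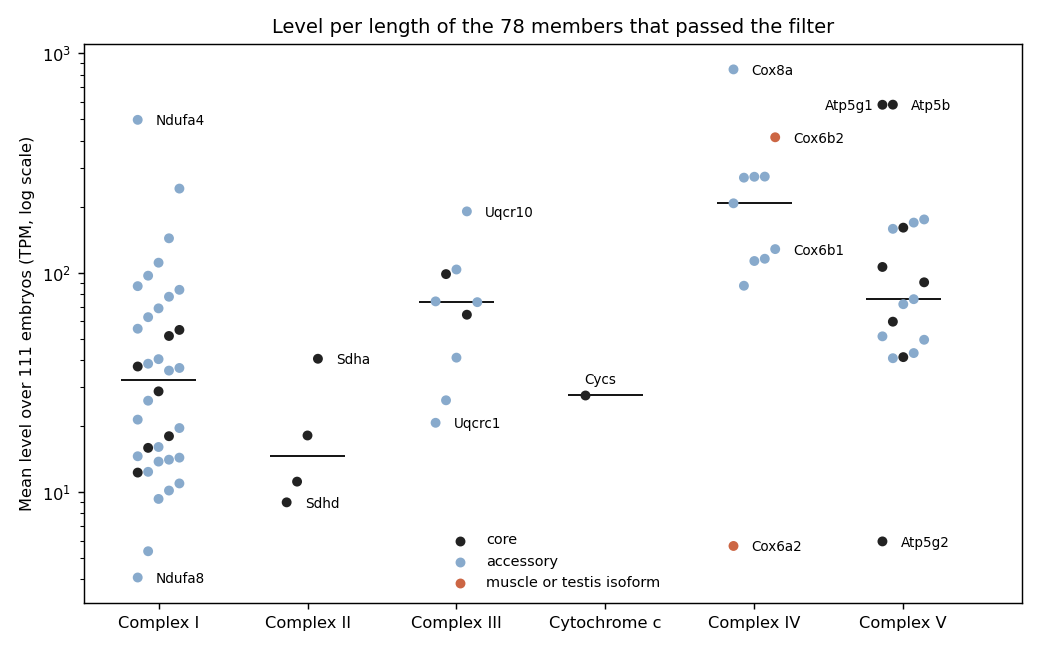
Mean level per length (TPM, log scale) over all embryos of the 78 members that passed the filter, by complex; each point is a gene, coloured as core subunit, accessory subunit or muscle or testis isoform, and lines are the medians. Complex IV has the highest median at 207 TPM, and the testis isoform Cox6b2 lies above Cox6b1.

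Within groups the spread between embryos differed widely among the members. The coefficient of variation within a group had a median of 42.4% over the members and 52.0% over all tested genes, and the members' average log2 CPM was also slightly higher (4.80 against 4.42). Atp5b varied least at 19.8%. Its lowest, median and highest embryo had 360, 567 and 1048 CPM among controls and 255, 636 and 963 among knockdown embryos. The steadiest after it were the complex I subunit Ndufa11 at 25.1%, Cox8a at 26.9% and Cycs at 26.9%. At the other end Atp5g2, with 29 embryos at 0, varied by 112%.

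Among alternative complex IV isoforms the gene not named for testis or muscle led in every pair but Cox6b. Cox6b1 encodes the subunit VIb of complex IV, which sits on the side facing the intermembrane space, and Cox6b2 its testis-named counterpart. In GENCODE M21 Cox6b1 lies at chr7:30616861-30626151 and Cox6b2 at chr7:4751792-4753094, both on the minus strand of GRCm38. In control embryos Cox6b2 had 407 ± 149 TPM (SD, n = 56) and Cox6b1 114 ± 46.2 TPM. Knockdown embryos had 422 ± 145 TPM of Cox6b2 (SD, n = 55) and 143 ± 58.0 TPM of Cox6b1. Cox6b2 was the higher of the pair in all but 1 embryo, with a median share of 77.4% (46.1% to 91.8%). In the exception, a knockdown embryo of experiment 1, Cox6b1 took 53.9% of the pair. Without the 3 libraries that stood apart Cox6b2 was higher in 107 of 108. Of the 31-base words in the most abundant Cox6b2 transcript 0% occur in another gene, and of those in the most abundant Cox6b1 transcript 2.74% do. These transcripts held 43.9% and 97.3% of their genes' counts, and the other transcripts were not searched, for these or for any member. On counts not divided by length the order was the same, with 120 ± 47.0 CPM of Cox6b2 and 40.4 ± 16.8 CPM of Cox6b1 in control embryos.

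**Figure D2:**
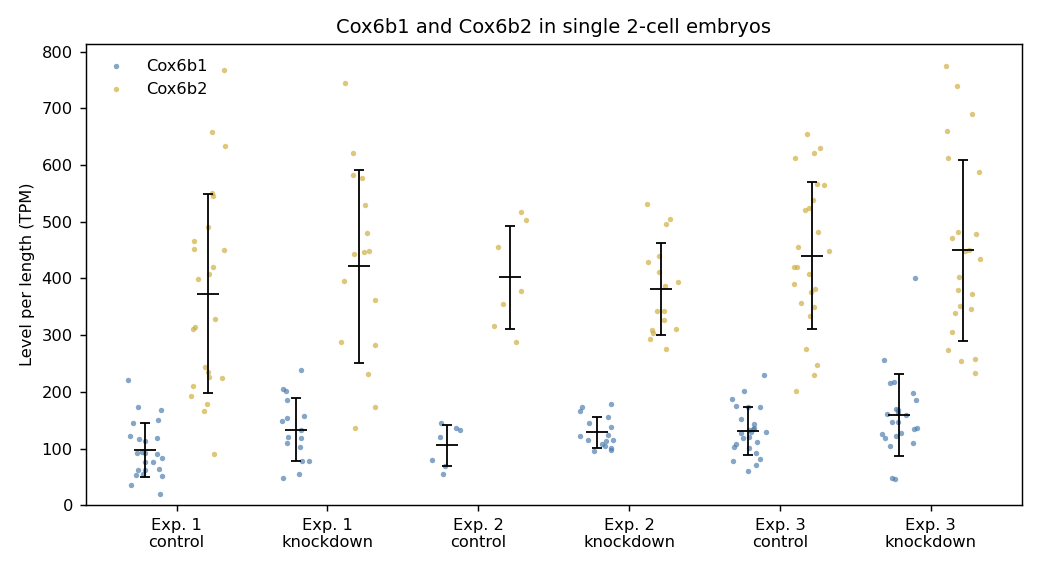
Level per length (TPM) of Cox6b1 and Cox6b2 in each embryo, by experiment and arm; points are embryos, bars the mean and SD. In control embryos Cox6b2 averages 407 TPM and Cox6b1 114 TPM, and Cox6b2 is the higher in all but 1 embryo.

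For the other pairs the form not named for testis or muscle was the higher in every embryo. Cox6a1 held a median of 98.5% of its pair with the muscle form Cox6a2, Cox7a2 97.9% against Cox7a1, Cox7b 100% against the testis form Cox7b2, and Cox8a 99.7% against Cox8b and Cox8c. Cox8b, a muscle form, was at 0 in 109 embryos. The 3 genes for subunit c, which forms the rotating ring of the ATP synthase, encode the same mature protein with different import signals. Atp5g1 was the highest of them in every embryo, with a median share of 83.9%, Atp5g3 had 14.6% and Atp5g2 0.60%. These shares carry a limit, since 67.3% of the 31-base words of the most abundant Atp5g1 transcript and 87.9% of those of Atp5g2 also occur in other genes, most of them in the gene models Gm10039 and Gm10175, while 0% of those of Atp5g3 do. Over the 78 members the median of this measure was 7.16%, and 9 members were above 50%: Ndufs3, Ndufa12, Uqcrb, Cox7c, Atp5h, Atp5o, Atp5l, Atp5g1 and Atp5g2. Values of these 9 are uncertain where counts were divided among copies.

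The share of these genes called between knockdown and control embryos was close to that of all tested genes. With experiment as a factor, edgeR's quasi-likelihood test with Benjamini-Hochberg adjustment over 13444 genes called 1 of 78 members, Cox6b1, against 1.1% of all tested genes (148 genes, 63 lower and 85 higher). Higher calls made up 0.632% of all genes. At an unadjusted p under 0.05 there were 11 members, 9 higher and 2 lower, which is 14.1% of the members against 9.51% of all genes. Most fold changes were small and positive: 59 of 78 were above 0 (75.6%), against 54.9% of all genes, with a median log2 fold change of 0.09 against 0.02 and a range of -0.33 to 0.42. Scaling by library totals left 49 positive, and leaving out the 3 libraries that stood apart left 50. By experiment 47, 42 and 56 of the 78 were positive, against 51.5%, 49.2% and 55.8% of all genes, and 0 members were called within any experiment, where 0.922%, 0% and 0.149% of all genes were called. In the same tests 124 genes were called in experiment 1, 0 in experiment 2 and 20 in experiment 3. Fold changes were positive in all 3 experiments for 19 members (24.4%, against 14.6% of all genes) and negative in all 3 for 7, against 11.2% of all genes. The test of whether the response differed between experiments called 0 members, with 3 at an unadjusted p under 0.05, against 0.0149% of all genes called and 5.65% at that unadjusted p.

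**Figure D3:**
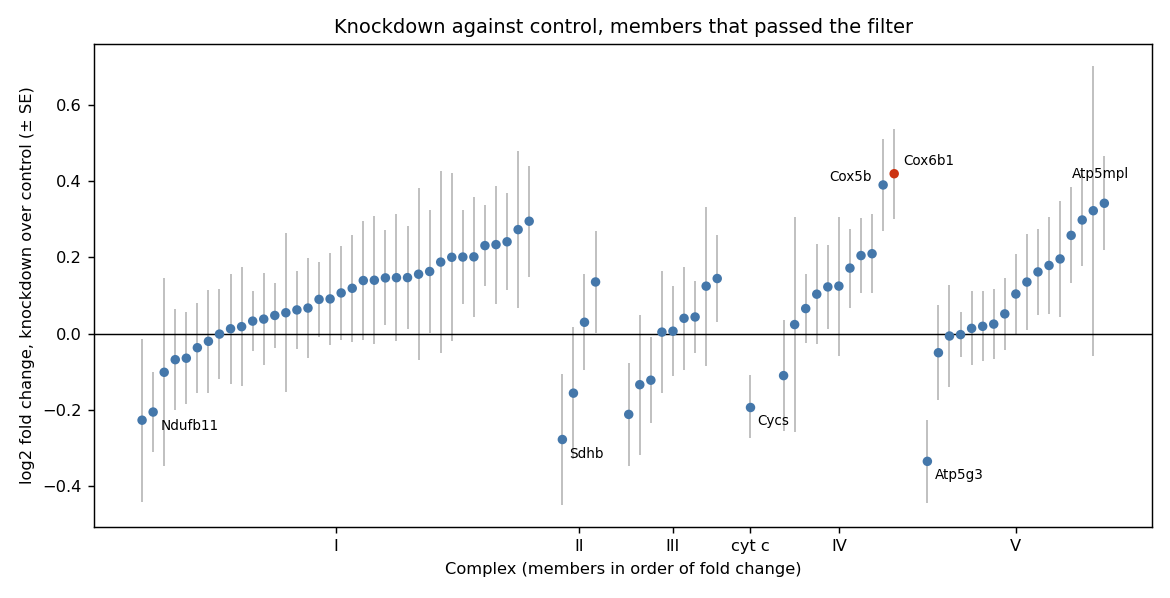
Log2 fold change of knockdown over control (± SE) for the 78 members that passed the filter, ordered within each complex; red marks the called gene. Cox6b1 at 0.42 is the only called member, and Atp5g3 at -0.33 is the lowest.

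Complex I members did not pass the test in either direction. Of the 36 tested, 28 had a positive and 8 a negative fold change, with a median of 0.10, with 10 positive and 4 negative in all 3 experiments. Ndufb2, an accessory subunit, had the smallest p: it ran from 7.69 through 28.0 to 55.5 CPM in control embryos and from 11.1 through 35.0 to 61.3 in knockdown embryos. Its log2 fold change was 0.23 (SE 0.11) with an adjusted p of 0.439. In the other direction Ndufb11, an accessory subunit encoded on the X chromosome, had a median of 41.8 CPM in control and 39.0 CPM in knockdown embryos and a fold change of -0.21 (SE 0.10, adjusted p = 0.529). The arms overlapped over nearly their whole range in both genes. The most abundant, Ndufa4, had 155 ± 74.3 CPM in control (SD, n = 56) and 165 ± 109 in knockdown embryos (SD, n = 55), a difference that did not pass (0.15, SE 0.13, adjusted p = 0.857). Summed over complex I, with Ndufa4 included, control embryos had 827 ± 142 CPM (SD, n = 56) and knockdown embryos 875 ± 164 (SD, n = 55). By experiment the median fold change of the tested members was 0.01, -0.03 and 0.11, so the sums do not describe the typical member. Within experiments the log2 difference of the sums was 0.10, 0.06 and 0.08. In experiment 3 it was 0.01 with library totals, -0.03 in TPM and -0.02 without the 3 libraries that stood apart, which had the sums 1265, 1501 and 1369 CPM.

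The 4 members of complex II went in both directions, with a median of -0.06. Sdhb, the iron-sulfur subunit, had medians of 7.61 CPM in control and 6.11 CPM in knockdown embryos and a fold change of -0.28 (SE 0.17, adjusted p = 0.684). For Sdha the value was 0.03 (SE 0.13), with its highest embryo, at 308 CPM, among the 3 libraries that stood apart, and it was -0.07 without them. Sums were 91.9 ± 35.0 CPM in control (SD, n = 56) and 94.8 ± 47.6 in knockdown embryos (SD, n = 55). Without the 3 libraries the knockdown mean was 88.9 ± 26.6 CPM (SD, n = 52), below that of control embryos, and the log2 difference in experiment 3 was -0.23 in place of -0.12. Complex III gave 6 positive and 3 negative fold changes with a median of 0.01. Uqcrc1 had the smallest p there, with medians of 18.8 and 17.8 CPM and a fold change of -0.21 (SE 0.13, adjusted p = 0.701). Uqcr10, the most abundant, had medians of 49.5 CPM in control and 52.9 CPM in knockdown embryos and a fold change of 0.14 (SE 0.11, adjusted p = 0.811). Complex III sums pooled over experiments were 313 ± 71.4 CPM in control and 322 ± 75.3 in knockdown embryos. Within experiments the log2 difference of the sums was -0.08, 0.005 and 0.05, and -0.004 over all 3. None of its members kept 1 sign in all 3 experiments.

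Cycs, the somatic cytochrome c, had lower medians in knockdown embryos, but the difference missed the threshold over all genes. Its lowest, median and highest control embryo had 17.4, 55.2 and 76.9 CPM in experiment 1, 28.4, 35.4 and 49.96 in experiment 2 and 32.5, 45.6 and 91.6 in experiment 3. In knockdown embryos the same values were 28.1, 51.3 and 71.3, then 15.3, 26.4 and 48.9, then 22.7, 40.8 and 70.5. The ranges overlapped in each experiment, and 40 of 55 knockdown embryos lay below the control median of their experiment. On the log2 scale the difference was -0.19 (SE 0.08) with an adjusted p of 0.381, and -0.12, -0.45 and -0.14 in the 3 experiments. Of the 31-base words of Cycs 32% occur in other genes, most of them in the gene model Gm10053.

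Complex IV held the called gene and the highest median fold change, 0.12, with 10 of 11 positive and 7 positive in all 3 experiments (Cox5a, Cox5b, Cox6a1, Cox6b1, Cox6c, Cox7a2 and Cox7c). The exception was Cox7b at -0.11. Cox6b1 had 8.43, 30.6 and 76.5 CPM as lowest, median and highest among control embryos of experiment 1, 15.6, 43.1 and 48.3 in experiment 2 and 24.4, 44.0 and 76.2 in experiment 3. Knockdown embryos had 18.5, 49.6 and 87.1, then 29.9, 41.1 and 70.2, then 16.0, 61.4 and 182. The groups overlapped in every experiment, the knockdown median was the higher in experiments 1 and 3 and slightly the lower in experiment 2, and 36 of 55 knockdown embryos lay above the control median of their experiment. Cox6b1 rose by 0.42 on the log2 scale (SE 0.12) with an edgeR adjusted p of 0.0484, and by experiment the values were 0.46, 0.31 and 0.43. The call lay close to the threshold. By composition-scaled CPM the 3 embryos with the most Cox6b1 were the 3 libraries that stood apart, while by TPM 1 of them was the highest and the other two lay below embryos of both arms. Without these libraries the fold change was 0.33 with an adjusted p of 0.174. Over 14 alternatives the fold change ran from 0.33 to 0.44 and the adjusted p from 0.0156 to 0.366, and 4 kept the call. Cox6b2 ran from 24.3 through 118 to 262 CPM in control and from 46.5 through 118 to 267 in knockdown embryos, so its medians were alike. It gave 0.12 (SE 0.11, adjusted p = 0.847), with 27 of 55 knockdown embryos above the control median. The share of Cox6b1 in the pair was 22.5% ± 7.86 in control (SD, n = 56) and 26% ± 9.35 in knockdown embryos (SD, n = 55).

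Another 3 complex IV genes had an unadjusted p under 0.05, all higher in knockdown embryos. Cox5b, a subunit on the matrix side, ran from 14.1 through 32.5 to 88.5 CPM in control and from 15.2 through 43.6 to 99.6 in knockdown embryos, and 40 of 55 lay above the control median of their experiment. Its fold change was 0.39 (SE 0.12, adjusted p = 0.101), with 0.56, 0.08 and 0.38 by experiment, and DESeq2 called it (adjusted p = 0.0476), as did the fit without experiment 2 (adjusted p = 0.0481). Cox5a and Cox6a1 had fold changes of 0.21 and 0.20 (adjusted p = 0.502 and 0.482). The most abundant member, Cox8a, had medians of 266 and 271 CPM and a fold change of 0.07 (SE 0.09). By composition-scaled CPM its 3 highest embryos were again the libraries that stood apart, and without them the fold change was -0.02. Summed, complex IV took 900 ± 246 CPM in control embryos (SD, n = 56) and 983 ± 251 in knockdown embryos (SD, n = 55), with log2 differences of 0.28, 0.09 and 0.06 in the 3 experiments. Experiment 3 gave -0.01 with library totals, -0.04 in TPM and -0.05 without those libraries, whose sums were 1626, 1853 and 1684 CPM.

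**Figure D4:**
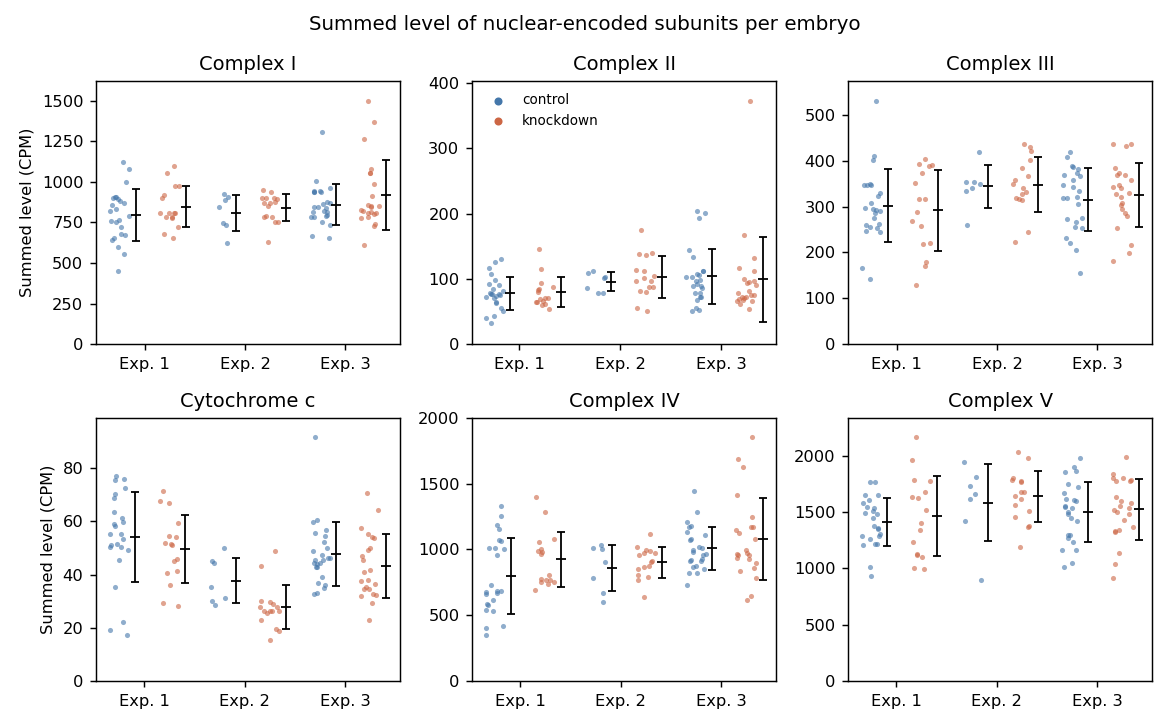
Summed level (CPM) of the members of each complex per embryo, by experiment; points are embryos, blue for control and orange for knockdown, and bars the mean and SD. The arms overlap in every panel, complex IV averages 900 CPM in control and 983 CPM in knockdown embryos, and cytochrome c is lowest in experiment 2.

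Complex V gave the lowest fold change of any member. Atp5g3 had 21.1, 50.1 and 94.1 CPM as lowest, median and highest among control embryos of experiment 1, 35.7, 54.2 and 70.5 in experiment 2 and 19.4, 52.0 and 106 in experiment 3. Its knockdown values were 24.2, 45.1 and 71.1, then 20.2, 39.7 and 53.4, then 11.1, 36.5 and 79.9. The ranges overlapped, each knockdown median was the lower, and 44 of 55 knockdown embryos lay below the control median of their experiment. The difference on the log2 scale was -0.33 (SE 0.11) with an adjusted p of 0.131, which did not pass, and by experiment it was -0.18, -0.52 and -0.39. Over 14 alternatives it stayed between -0.42 and -0.27 with adjusted p-values from 0.0616 to 0.649. Atp5g1 went the other way at 0.05 (SE 0.09), and the Atp5g3 share of subunit c transcripts was 17.9% ± 6.10 in control (SD, n = 56) and 13.9% ± 5.92 in knockdown embryos (SD, n = 55).

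Of the 17 tested complex V members 13 had a positive fold change, with a median of 0.10, and with medians of 0.14, -0.07 and 0.07 by experiment. Atp5mpl, a small proteolipid subunit, had medians of 30.1 CPM in control and 35.2 CPM in knockdown embryos and a fold change of 0.34 (SE 0.12, adjusted p = 0.212), with 0.51, -0.08 and 0.39 by experiment. The epsilon subunit Atp5e and the membrane subunit Atp5k gave 0.30 and 0.26 (adjusted p = 0.313 and 0.496). Atp5b, the most abundant, had medians of 567 and 636 CPM and a fold change of -0.0025 (SE 0.06), and the sign changed in 5 of 14 alternatives. These medians pool the experiments, which hold unequal shares of the arms, while the fold change was fitted with experiment as a factor. Summed, complex V took 1472 ± 259 CPM in control (SD, n = 56) and 1540 ± 289 in knockdown embryos (SD, n = 55), with log2 differences of 0.03, 0.07 and 0.02. The value for experiment 3 turned to -0.05 with library totals and -0.07 in TPM. Without the 3 libraries that stood apart it was 0.06.

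The experiments differed from each other in more members than the arms did. With arm as a factor, 32 of 78 members (41.0%) differed between experiments, against 32% of all tested genes, by edgeR's quasi-likelihood test at an adjusted p under 0.05. The labels do not say what differed between the experiments, and their libraries also differed in depth, as given above. By complex the calls were 12 in complex I, 1 in complex II, 5 in complex III, 1 for Cycs, 6 in complex IV and 7 in complex V. Against experiment 1, the members' median log2 fold change was -0.02 in experiment 2 (all genes -0.05) and 0.14 in experiment 3 (all genes 0.00). Of the 32 called, 15 were higher in experiment 2 than in experiment 1 and 24 were higher in experiment 3.

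Ndufv3, an accessory subunit of the NADH-oxidizing module, had the smallest p. Control medians were 44.8 CPM in experiment 1, 24.7 in experiment 2 and 22.8 in experiment 3, and knockdown medians 41.2, 26.9 and 24.0. It was lower in both later experiments in either arm (log2 fold changes of -0.81 and -0.74, adjusted p = 1.7e-06). Cycs was lowest in experiment 2 (-0.72 against experiment 1, adjusted p = 2.61e-06), where both arms had medians below those of the other experiments. Cox6c, a small complex IV subunit, was highest in experiment 3, with control medians of 28.5, 27.6 and 40.9 CPM and a fold change of 0.57 against experiment 1 (adjusted p = 3.88e-05). The largest differences were those of Ndufc2 and Uqcrb, lower in experiment 2 (-1.18 and -1.02), while Ndufa3 and Uqcr11 were higher in experiment 3 (1.09 and 1.03). Cyc1, the cytochrome c1 of complex III, was higher in experiment 2 (0.72) and near experiment 1 in experiment 3 (0.09). The members with the largest p of this test were Atp5g2, Cox6a2 and Ndufa10, and the first 2 of these had few counts.

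**Figure D5:**
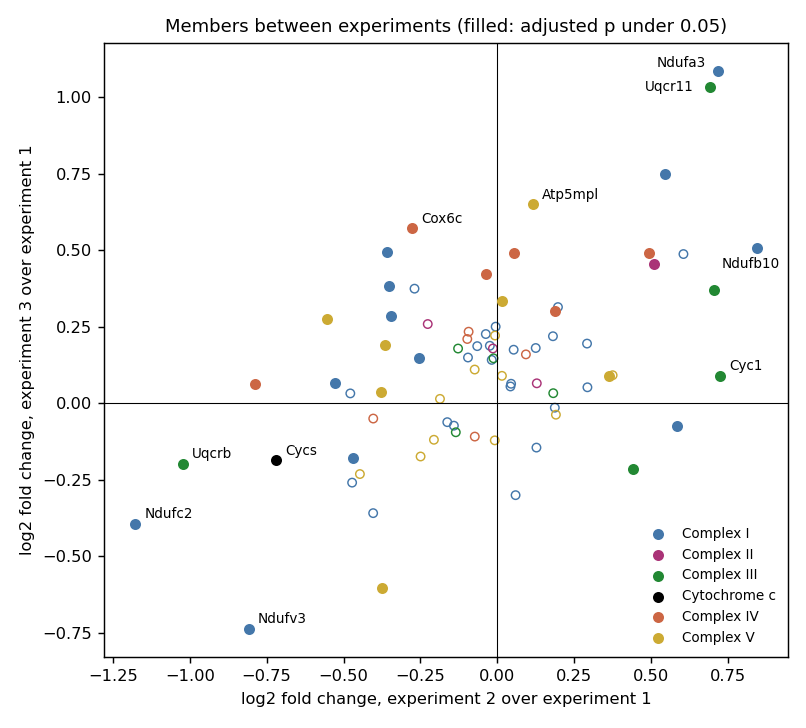
Log2 fold change between experiments for the 78 members, experiment 2 over 1 on the x axis and experiment 3 over 1 on the y axis, coloured by complex; filled points passed the test of any difference between experiments. Ndufv3 lies lower left at -0.81 and -0.74, and Ndufa3 and Uqcr11 lie upper right.

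Transcripts of the mitochondrial genome were far more abundant than those of the nuclear subunits of the same complex. The median mitochondrial gene had 5191 TPM in complex I against 32.3 for the nuclear members, and in complex IV 13991 against 207. The summed CPM was higher by a median factor of 33.4 in complex I, 49.9 in complex III, 28.7 in complex IV and 2.5 in complex V. All 13 mitochondrial protein genes had positive fold changes in knockdown embryos, with a median of 0.31, and 6 of them were higher by the test: mt-Nd2, mt-Nd3, mt-Nd4l, mt-Nd5, mt-Co2 and mt-Atp8, against 1.1% of all genes. Their fold changes ran from 0.31 for mt-Nd5 (adjusted p = 0.0358) to 0.44 for mt-Nd2 (adjusted p = 0.000817). None of these 6 was called without experiment 3, and mt-Nd4l and mt-Nd5 were not called without the 3 libraries that stood apart. Over 14 alternatives mt-Nd2 kept its call in 13, mt-Co2 and mt-Atp8 in 12, mt-Nd3 and mt-Nd4l in 11 and mt-Nd5 in 6. For complex I the median was 0.31 over mitochondrial and 0.10 over nuclear genes, and for complex IV 0.22 and 0.12. These medians were not compared by a test.

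Genes around the system mostly did not pass the test, which called 1.1% of all tested genes. At that share a count of 0 in lists this short says little about their genes. Of the subunits that the pattern left out, Cox4i1, Cox7a2l and Ndufab1 had fold changes of 0.03, 0.02 and 0.12. Among assembly factors 0 of 14 for complex I, 0 of 4 for complex II, 0 of 6 for complex III and 0 of 3 for complex V were called, and 1 of 14 for complex IV. This was Cox14, a small protein needed to make the first core subunit of complex IV, with 153 ± 77.4 CPM in control and 208 ± 94.7 in knockdown embryos (SD, n = 56 and 55) and a fold change of 0.45 (SE 0.12, adjusted p = 0.037 by edgeR). By experiment it was 0.84, -0.23 and 0.43, and 6 of 14 alternatives kept the call, which was lost without the 3 libraries that stood apart (adjusted p = 0.0646). Among 7 carriers and channels, such as the ADP/ATP carriers and Vdac1, 0 were called. Among 11 tested regulators of mitochondrial biogenesis 0 were called, and the smallest p belonged to Esrrb (0.35, SE 0.17, adjusted p = 0.497). The NRF1 gene, Nrf1, had a fold change of -0.12 (SE 0.10) and Gabpa, the DNA-binding subunit of GABP, one of -0.23 (SE 0.19), while the coactivator Ppargc1a did not pass the filter.

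In the authors' deposited table, which tests transcripts and not genes, 0 of the 191 member transcripts with an adjusted p passed 0.05. There the main Cox6b1 transcript had a log2 fold change of 0.41 with an adjusted p of 0.0736, and that of Atp5g3 -0.35 with 0.180.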

How the data were processed

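Poly(A) RNA of single embryos was read by SmartSeq2 without molecular identifiers or strand. The submitters' processing notes list kallisto 0.46.1, Trim Galore 0.6.2, DESeq2 1.32.0 and R 3.5.1, with no order or role. Among builds they name hg19 and mm10 but not what each served for, and the annotation release was not given there. Estimated counts per transcript, as the authors deposited them, were summed to genes by the names in the authors' deposited table, rounded and tested here. The authors' batch-adjusted values, deposited with no named unit and treated as a score, were used as an alternative. Log2 fold changes and p-values per transcript were deposited by the authors from DESeq2, and are printed only where that table is named.

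Genes passed filterByExpr by arm (minimum count 10). edgeR 4.0.16 in R 4.3.3 (TMM scaling) fitted experiment and arm with the quasi-likelihood test, Benjamini-Hochberg adjustment over 13444 genes and a threshold of 0.05. TPM used GENCODE M21 transcript lengths. Alternatives used limma 3.58.1 and DESeq2 1.42.0, other scalings and filters, and fewer experiments or libraries. Leaving out the 3 libraries that stood apart was chosen after seeing the data. The main fit was also run on simulated counts of independent embryos with no difference between experiments. That run does not show how the fit behaves where experiments differ or embryos share parents. Depth was between 1.96 and 21.2 M counts, and shares carry counting error on top of the spread given. Promoter windows came from RefSeq on GRCm38.p6.

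The members and gene lists were chosen with earlier results of these data known. Named with values are members called for arm or interaction, the 3 smallest p in each direction, per complex the most and least abundant member and the smallest p, the 3 smallest and 3 largest p between experiments, alternative isoforms, and of each other list the called genes and the smallest p. Others were named after their values were seen.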

Additional observations from a re-analysis of the deposited data

Results flagged for a closer look

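In the 7 control embryos of experiment 2, 4 of 37 values had 1 embryo far from the others, and chance flags about 1 in 20 groups of normally distributed values. Uqcr10 had a lowest embryo at 14.8 CPM, with the next at 40.3 and a median of 45.8. The other 3 genes did not pass the filter and had 1 high embryo. Cox8c reached 4.76 CPM with the next at 1.74. Cox7b2 reached 0.952 CPM and Cox8b 0.251 CPM, both with the other embryos at 0, so that any count at all in 1 embryo would have stood out and the chance rate does not apply to them.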

How the results depend on the processing

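The test of arm called 148 genes, and 965 with no filter on low counts, 23 without experiment 1, 42 without experiment 3, 74 with the most abundant transcript alone and 227 with DESeq2. Embryo numbers recur between arms, and nothing in the labels says whether they mark a shared source. Over 46 same-numbered pairs the median correlation was 0.059 (-0.55 to 0.55), and 6 embryos matched their own number best. The number of such matches to be found by chance was not computed, so these values do not settle whether the numbers pair embryos. With the embryo number as a replicate block 23 genes and 0 members were called. The split of 63 lower and 85 higher genes became 69 and 58 with library totals and 93 and 55 with the batch-adjusted values. The members called were 0 with library totals, without experiment 1, without experiment 3, with libraries of at least 3 M counts, with the most abundant transcript, in limma-voom, with the batch-adjusted values and without the 3 libraries that stood apart, and 2 with DESeq2 (Cox5b and Cox6b1). Without experiment 2 the 1 call was Cox5b. The members' median fold change was 0.039 with the batch-adjusted values.

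Signs changed for small fold changes. Sdha became -0.072 without the 3 libraries, -0.027 with library totals, -0.051 without experiment 1, -0.0013 without experiment 2, -0.0031 in limma-voom and -0.017 with the batch-adjusted values. Cox6a2 became -0.176 without the 3 libraries, -0.029 with library totals, -0.180 without experiment 1, -0.012 with the replicate block, -0.0014 in limma-voom and -0.060 with the batch-adjusted values. Atp5b became 0.0093 without the 3 libraries, 0.0091 with DESeq2 size factors in edgeR, 0.012 with a filter at 30 counts, 0.051 without experiment 1 and 0.0090 with DESeq2. Without the 3 libraries Cox8a became -0.025 and Cox6c -9.78e-05. Without experiment 3 Ndufv3 became -0.027, Cox7b 0.022 and Odf2 -0.0035. Single cases were Atp5g2 at -0.041 and Tnfaip6 at -0.085 in limma-voom, Atp5g1 at -0.027 without experiment 1, Ndufa10 at 0.0056 with libraries of at least 3 M counts, and Ndufab1 at -0.13 with the most abundant transcript. The cause of these changes was not tested. Genes of few counts, such as Cox6a2 and Atp5g2, are limited by depth.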
